A study of Mus musculus with 16 samples.

Results

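Creatine cycling genes are the genes whose products make, import, phosphorylate and dephosphorylate creatine, and 7 of them were followed through white and brown fat: Ckb, Ckmt1, Ckmt2, Gatm, Gamt, Slc6a8 and Alpl. They were chosen by name, and every array probe whose RefSeq accession mapped to one of these symbols was taken, which gave 8 probes. All 7 genes were among the 15467 genes tested. Ckb had 2 probes and the other 6 genes had 1 each, and the probe of Gamt was printed in 10 spots. On all 16 arrays 6 of the genes were well above background; Ckmt2 entered the test only through the brown fat groups, where it was high.

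The study compared fat of male mice in which the glucocorticoid receptor, a steroid-activated transcription factor encoded by Nr3c1, was knocked out in adipose tissue with that of control mice, which the series design calls wild-type. The 4 groups were white fat of controls, white fat of knockouts, brown fat of controls and brown fat of knockouts, each hybridised on 4 1-colour Agilent arrays. The labels give no treatment. The Cre driver, the ages of the mice and the fat depots are not given in the sources used here.

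Creatine is made from arginine and glycine in a pathway that starts with Gatm, which makes guanidinoacetate, and ends with Gamt, which methylates it to creatine. Slc6a8 carries creatine into cells. Creatine kinases move phosphate between ATP and creatine: Ckb in the cytosol and, in thermogenic fat, at mitochondria, and Ckmt1 and Ckmt2 between the mitochondrial membranes. In thermogenic fat, repeated phosphorylation and dephosphorylation of creatine is known to spend ATP as heat independently of the uncoupling protein Ucp1, and Alpl, a tissue-nonspecific alkaline phosphatase, is the enzyme reported to split phosphocreatine in that cycle. Striated muscle uses the same chemistry as an energy buffer, with Ckm in the cytosol and Ckmt2 in mitochondria.

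The promoters of 3 members are shown because these genes carry the main contrasts described here: Ckmt2 differed most between the tissues, Gamt was lower in all knockout samples, and Alpl has the single member promoter with a glucocorticoid receptor half-site. The sequences are the 250 bases before a transcript start in the RefSeq annotation of GRCm38.p6, read 5′ to 3′ on the gene's strand. Capitals mark every match to the motifs named in the next paragraph.
Ckmt2, chr13:91876886-91877135, minus strand: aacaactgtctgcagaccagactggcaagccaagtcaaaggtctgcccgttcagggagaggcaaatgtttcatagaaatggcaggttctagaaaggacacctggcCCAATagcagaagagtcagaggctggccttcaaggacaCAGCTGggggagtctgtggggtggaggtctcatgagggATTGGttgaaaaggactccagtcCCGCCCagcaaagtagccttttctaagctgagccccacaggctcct
Gamt, chr10:80261013-80261262, minus strand: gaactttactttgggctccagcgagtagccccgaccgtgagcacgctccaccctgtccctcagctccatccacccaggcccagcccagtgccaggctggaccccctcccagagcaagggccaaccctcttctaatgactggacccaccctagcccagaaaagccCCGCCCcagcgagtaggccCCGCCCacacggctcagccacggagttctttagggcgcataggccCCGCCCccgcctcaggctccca
Alpl, chr4:137766476-137766725, minus strand: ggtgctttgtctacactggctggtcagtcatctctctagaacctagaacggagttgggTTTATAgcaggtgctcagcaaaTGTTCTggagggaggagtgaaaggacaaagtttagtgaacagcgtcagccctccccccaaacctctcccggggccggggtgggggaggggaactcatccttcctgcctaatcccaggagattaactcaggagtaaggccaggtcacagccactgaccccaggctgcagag

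RefSeq windows were found for 6 of the 7 members, 8 windows in all, since Ckmt1 and Alpl have 2 each. The motifs searched on both strands were the glucocorticoid half-site AGAACA, the oestrogen-related receptor element TCAAGGTCA, the shorter AAGGTCA that it contains, the muscle-gene E-box CAGCTG, the core promoter box TATAAA, the Sp1-type box GGGCGG, the upstream box with the letters CCAAT and the cyclic AMP element TGACGTCA. The half-site occurred in 16.1% of 32851 windows of the same length, and among the members it occurred once, in the second Alpl window, 170 bases before the start. A half-site followed by 3 bases and its reverse complement, the palindrome bound by a receptor dimer, was in 0.00913% of all windows and in no member window. The Ckmt2 window held CAGCTG 107 bases before the start, a motif in 13% of all windows, with 1 GGGCGG and 2 CCAAT matches. The Gamt window held 3 matches to GGGCGG, 86, 67 and 22 bases before the start, and 32.7% of all windows held at least 1. The Ckb window held TATAAA 28 bases before the start, a motif in 12.4% of all windows. These matches describe letters only.

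The arrays were first compared within groups. Of 24 pairs, 9 differed by less than the error the scanner software assigns to each spot, and such arrays were averaged and counted as 1 sample, leaving 9 distinct samples: 2 white control (arrays 1 and 4, arrays 2 and 3), 2 white knockout (array 1, arrays 2 to 4), 3 brown control (array 1, arrays 2 and 3, array 4) and 2 brown knockout (array 1, arrays 2 to 4). The series design calls the 4 arrays of a group biological replicates, so results with all 16 arrays are given too where they differ. Levels are log2 of the processed intensity over the array's 75th percentile, so 0 is the 75th percentile, and a level can be compared between samples for 1 probe but not between genes.

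Several samples stood apart. Brown control 2 + 3 was low in the brown fat markers Ucp1, Cidea, Elovl3, Otop1 and Zic1 but not in Cox7a1 and Cox8b. Ucp1 was at -0.75 on both of its arrays, against 6.61 and 8.13 on the other brown control arrays. Brown knockout arrays had Ucp1 at 5.70 to 5.92. Cidea was at 2.88 and 2.79 in brown control 2 + 3 against 7.59 and 8.71 in the other brown controls. White controls had Cidea at 4.47 to 5.04. In the same order of brown controls, Elovl3 was at -4.99 and -4.33 against 1.53 and 2.52. Otop1 was at -3.46 and -3.62 against -0.14 and 1.58, and Zic1 at -4.15 and -4.36 against -1.29 and 0.07. Cox7a1 was at 8.11 and 7.94 against 7.67 and 8.06, and Cox8b at 7.16 and 7.27 against 7.28 and 7.97. The median of 21 thermogenic genes was 1.23 and 2.52 in the other brown controls and -1.22 and -0.90 in white controls. It was 0.24 in brown control 2 + 3. All brown samples carried strong skeletal muscle signal, including that one: the summed level of 30 muscle genes was 5536 to 7573 in brown control and 2876 to 5486 in brown knockout arrays, against 28.8 to 31.3 in white control and 35.4 to 58.7 in white knockout arrays. In white knockout 1 the median of 12 neuronal genes was 0.98, against -4.20 to -1.39 in the other 8 samples. In white knockout 2 + 3 + 4 the median of 16 adipocyte genes was 5.10, against 5.93 to 7.03 elsewhere, and that of 19 lymphocyte genes was 3.21, against -3.51 to 2.21. Brown knockout 2 + 3 + 4 stood apart from the other brown samples in the same lists: its lymphocyte median was 2.21 against -3.51 to 0.51, its adipocyte median 5.93 against 6.38 to 6.93 and its muscle median 5.79 against 6.66 to 7.38. Of the 19 lymphocyte genes, 18 had a higher mean in brown knockouts than in brown controls and 12 had an unadjusted p below 0.05 in limma, with none past the adjusted threshold and a median difference of 3.66. In bulk tissue, fewer cells of a type and less RNA per cell cannot be told apart.

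By its brightest probe, Nr3c1 was lower in every knockout sample. White controls were at 2.08 to 2.49 and white knockouts at 1.30 to 1.58, and brown controls at 2.34 to 2.71 and brown knockouts at 1.57 to 1.83. The difference was -0.89 ± 0.23 (log2, SE; adjusted p = 0.414, limma) in white fat and -0.85 ± 0.21 (adjusted p = 0.619) in brown fat. The other 3 probes gave -1.10, -0.23 and -0.99 in white fat and -0.81, -0.64 and -0.35 in brown fat. On the probe with -0.23 the white groups overlapped, with controls at -2.61 to -2.27 and knockouts at -2.93, -2.52, -2.63 and -2.22. Where these probes lie relative to the deleted part is not given in the sources used here.

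**Figure D1:**
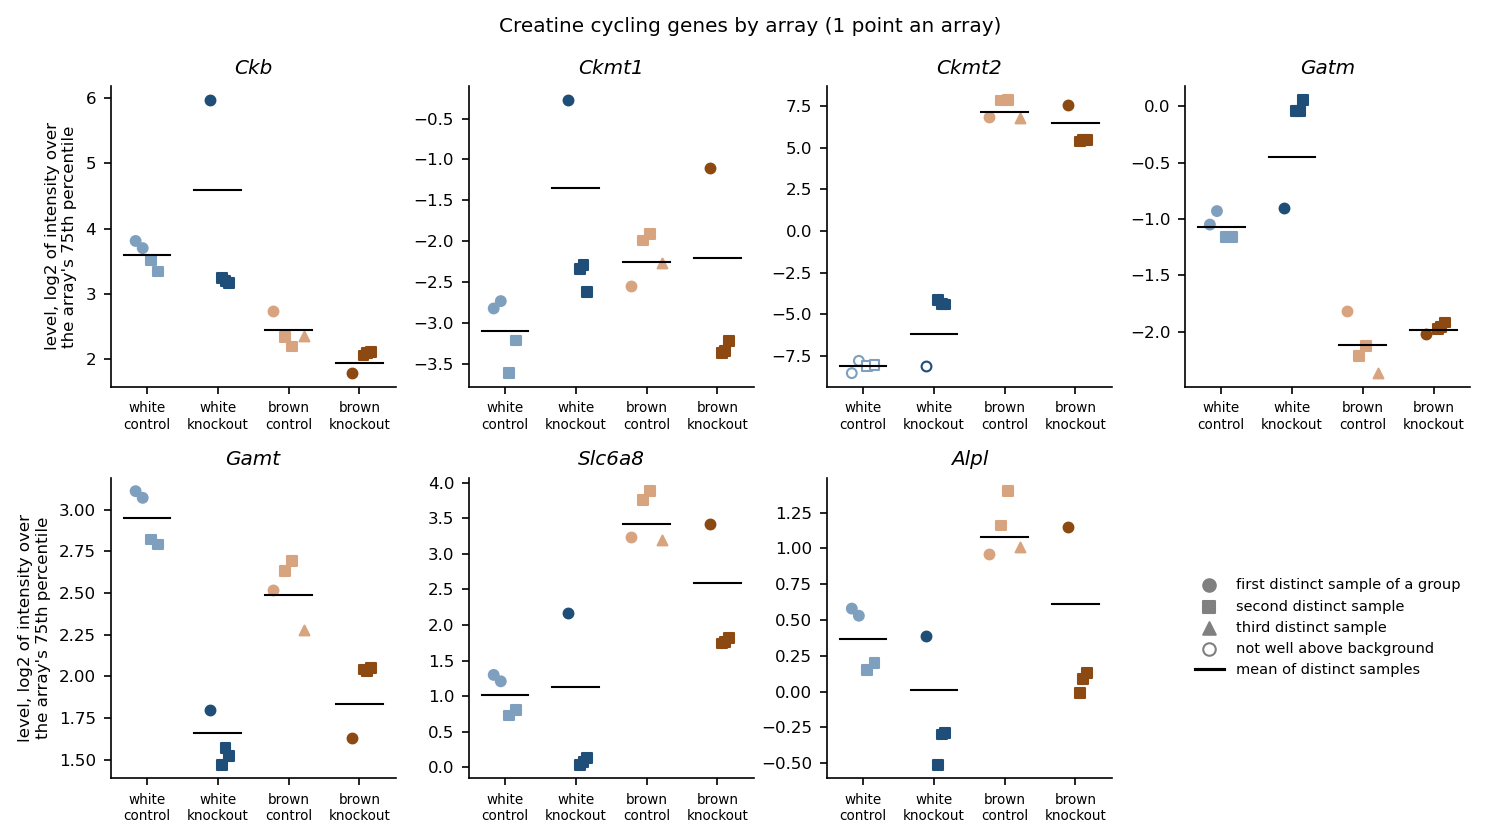
Level of each creatine cycling gene on each of the 16 arrays, as log2 of intensity over the array's 75th percentile, by group; marker shapes separate the distinct samples of a group, open markers are not well above background, and bars are means of distinct samples. Ckmt2 separates the tissues, Gamt separates knockout from control in both tissues, and white knockout 1 is the highest array for Ckb and Ckmt1.

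To ask whether the knockout changed creatine cycling genes, each tissue was compared between genotypes. None of the 7 members passed an adjusted p of 0.05 in limma in white fat, where 0% of the 15467 genes did, or in brown fat, where also 0% did. The difference between the knockout effects of the tissues passed for no member either, and for 0% of all genes. At an unadjusted p below 0.05 there were 1540 genes in white fat, 1089 in brown fat and 402 for the difference between tissues, and among the members Gamt alone in each tissue and none for the difference. The members' median log2 difference was 0.62 in white fat, against -0.03 over all genes, and -0.52 in brown fat, against -0.12. Each member's difference averages the distinct knockout samples. Those went opposite ways for Ckb, Slc6a8 and Alpl in white fat, and for Ckmt1, Ckmt2 and Alpl in brown fat. The medians therefore need not hold for either knockout sample alone.

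When the 16 arrays were treated as separate samples, 3 of 7 members passed in white fat, where 44.8% of all genes passed: Ckmt2 (2.86 ± 0.75, adjusted p = 0.00903, limma), Gatm (0.85 ± 0.18) and Gamt (-1.36 ± 0.13). In brown fat 3 of 7 passed, where 30.6% of all genes passed: Gamt (-0.60 ± 0.13, adjusted p = 0.00944), Slc6a8 (-1.34 ± 0.47) and Alpl (-0.79 ± 0.25). These counts rest on the joined arrays being different animals: arrays 2, 3 and 4 of each knockout group, and the joined control arrays as well.

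Gamt, which completes creatine synthesis, was the member with the most regular difference. White control arrays read 3.11, 2.82, 2.79 and 3.07, and white knockout arrays 1.80, 1.47, 1.57 and 1.52. Brown control arrays read 2.52, 2.63, 2.69 and 2.28, and brown knockout arrays 1.63, 2.04, 2.03 and 2.05. All knockout arrays lay below all control arrays of their tissue. That was so for 18.3% of all genes in white fat and for 16.5% in brown fat, and for 1 of 7 members in white fat and 2 of 7 in brown fat, the second being Ckb. The Gamt difference was -1.29 ± 0.25 in white fat (95% interval -1.89 to -0.69, unadjusted p = 0.00142, adjusted p = 0.293, limma), or 0.410 times the control level. In brown fat it was -0.65 ± 0.23 (interval -1.20 to -0.11, unadjusted p = 0.0257, adjusted p = 0.619), or 0.636 times the control level. The difference between those effects was 0.63 ± 0.34 (interval -0.18 to 1.45), and it did not pass. The distinct knockout samples were at -1.15 and -1.43 against the white control mean, and at -0.86 and -0.45 against the brown control mean. Within the slide that holds both white groups the Gamt difference was -1.29 (adjusted p = 0.0225 in the 16-array fit), and within the slide that holds both brown groups it was -0.65 (adjusted p = 0.249). Without brown control 2 + 3 the brown difference was -0.57. The adipocyte median was also below all controls of the tissue in each knockout sample. It was 6.63 and 5.10 against 7.03 and 6.66 in white fat, and 6.38 and 5.93 against 6.48 to 6.93 in brown fat. In brown fat the knockout sample with the lower Gamt level had the higher adipocyte median. The part of adipocyte RNA in the Gamt level was not tested.

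Gatm, which makes the guanidinoacetate that Gamt methylates, did not move with Gamt. White control arrays read -1.05, -1.16, -1.16 and -0.93, and white knockout arrays -0.90, -0.04, -0.04 and 0.06. All white knockout arrays lay above all white control arrays, but knockout 1 only just, and the other 3 arrays are 1 sample. The same order held for 11.1% of all genes in white fat and for 2 of 7 members there, Gatm and Ckmt1. It held for 11.4% of all genes in brown fat and for no member. The white fat difference of Gatm was 0.62 ± 0.34 (interval -0.17 to 1.42, adjusted p = 0.541, limma). In brown fat, control arrays read -1.82, -2.22, -2.13 and -2.37 and knockout arrays -2.02, -1.98, -1.96 and -1.92, a difference of 0.13 ± 0.31 (interval -0.59 to 0.86), and the groups overlapped.

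Ckb, the cytosolic brain-type creatine kinase, had its highest level in 1 sample. White control arrays read 3.81, 3.52, 3.34 and 3.70, and white knockout arrays 5.98, 3.24, 3.19 and 3.16. White knockout 1 was at 2.39 and white knockout 2 + 3 + 4 at -0.39 against the white control mean, so the samples of this group moved in opposite directions. The group means were 4.59 ± 1.96 (SD, n = 2) in knockouts and 3.59 ± 0.23 (SD, n = 2) in controls. Their difference, with an SE of 0.78 (interval -0.84 to 2.84, adjusted p = 0.631, limma), turned to -0.39 without white knockout 1, the sample with the high neuronal signal. Without white knockout 2 + 3 + 4 it was 2.39 (adjusted p = 0.0361, with the lone sample assumed to vary like the other groups). The part of that neuronal signal in the Ckb level was not tested.

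In brown fat, Ckb read 2.73, 2.33, 2.19 and 2.35 in controls and 1.78, 2.05, 2.09 and 2.10 in knockouts. The highest knockout value, 2.10, was under the lowest control value, 2.19. The difference was -0.52 ± 0.71 (interval -2.20 to 1.16, adjusted p = 0.777, limma), with an error pooled over all groups, the white knockout samples among them. The second Ckb probe gave differences of 0.68 ± 0.82 in white fat and -0.60 ± 0.75 in brown fat, in the same directions.

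Ckmt1, the ubiquitous mitochondrial creatine kinase, was also highest in white knockout 1. White control arrays read -2.82, -3.61, -3.21 and -2.73, and white knockout arrays -0.27, -2.34, -2.29 and -2.62. The white fat difference was 1.75 ± 0.87 (interval -0.30 to 3.80, adjusted p = 0.526, limma), made of 2.83 in knockout 1 and 0.68 in knockout 2 + 3 + 4. Brown control arrays read -2.54, -1.99, -1.91 and -2.26. Brown knockout 1 read -1.10 and the other brown knockout arrays -3.36, -3.34 and -3.22, so the knockout samples lay on both sides of all the controls. Their mean difference of 0.05 ± 0.79 (interval -1.82 to 1.92) averages 1.15 and -1.06.

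Ckmt2, the sarcomeric mitochondrial creatine kinase, was not well above background on any white control array, at -8.53 to -7.79, nor on white knockout array 1, at -8.08. It was well above background on white knockout arrays 2, 3 and 4, at -4.13, -4.39 and -4.41, which are 1 sample. The measured difference in white fat was 1.92 ± 1.21 (interval -0.94 to 4.78, adjusted p = 0.572, limma). No fold is given, because the bound set by the dimmest detectable probes exceeds the knockout mean. Without white knockout 1 the difference was 3.80 (adjusted p = 0.0474, the lone sample assumed to vary like the other groups). The measures of muscle signal ordered the white samples differently. The median of the 30 muscle genes was highest in white knockout 2 + 3 + 4, at -1.80 against -3.31 to -2.82 in the other white samples. Their summed level was highest in white knockout 1, at 58.7 against 35.4 to 37.1 in white knockout 2 + 3 + 4 and 28.8 to 31.3 in white controls. Ckm, the muscle creatine kinase, was also highest in white knockout 1, at 0.55 against -3.61 to -3.06 in the other white knockout arrays and -5.14 to -4.01 in white controls. The muscle actin gene Acta1 was also highest there, at 2.80 against -0.24 to -0.15, with white controls at 0.54 to 1.13. So was the slow myosin gene Myh7 (0.95 against -2.03 to -1.93). Mylpf, a fast myosin light chain gene, went the other way. It was at -2.55 in white knockout 1, -0.75 to -0.73 in the other white knockout arrays and -2.79 to -2.12 in white controls. Ckmt2 was not well above background in white knockout 1. The part of muscle RNA in the Ckmt2 level was not tested.

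In brown fat, Ckmt2 read 6.84, 7.83, 7.88 and 6.81 in controls and 7.59, 5.37, 5.46 and 5.44 in knockouts, and the groups overlapped through knockout 1. The difference was -0.66 ± 1.11 (interval -3.28 to 1.95, adjusted p = 0.813, limma). The control sample with low Ucp1 had the highest Ckmt2 level of the 3 brown control samples, 7.85 against 6.84 and 6.81.

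Slc6a8, the creatine transporter, was higher in knockout 1 than in the other knockout sample of both tissues. White control arrays read 1.30, 0.73, 0.81 and 1.21, and white knockout arrays 2.17, 0.04, 0.08 and 0.13. White knockout 1 was therefore above all the controls and the other knockout sample below them, and the mean difference was 0.11 ± 0.76 (interval -1.68 to 1.91, adjusted p = 0.953, limma). Without white knockout 1 it was -0.93. Brown control arrays read 3.24, 3.76, 3.88 and 3.20, brown knockout 1 read 3.42 and the other brown knockout arrays 1.74, 1.76 and 1.82. Brown knockout 1 lay within the control range and brown knockout 2 + 3 + 4 was at -1.65 against the control mean. The brown difference was -0.83 ± 0.70 (interval -2.47 to 0.82, adjusted p = 0.663).

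Alpl, the phosphatase, had the same order of knockout samples as Slc6a8. White control arrays read 0.58, 0.15, 0.20 and 0.53, and white knockout arrays 0.39, -0.51, -0.30 and -0.29. Brown control arrays read 0.96, 1.16, 1.40 and 1.01, and brown knockout arrays 1.15, -0.01, 0.09 and 0.13. In each tissue, knockout 1 lay within the control range and knockout 2 + 3 + 4 below it, at -0.73 in white fat and -1.01 in brown fat against the control means. The differences were -0.35 ± 0.42 (interval -1.33 to 0.63, adjusted p = 0.734, limma) and -0.47 ± 0.38 (interval -1.37 to 0.43, adjusted p = 0.656). In both tissues the sample with low Alpl and Slc6a8 was the one with the highest lymphocyte median (3.21 in white and 2.21 in brown fat) and the lowest adipocyte median (5.10 and 5.93). The muscle median of knockout 2 + 3 + 4 was the highest of the white samples (-1.80) and the lowest of the brown samples (5.79). The part of these markers in the Alpl and Slc6a8 levels was not tested.

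**Figure D2:**
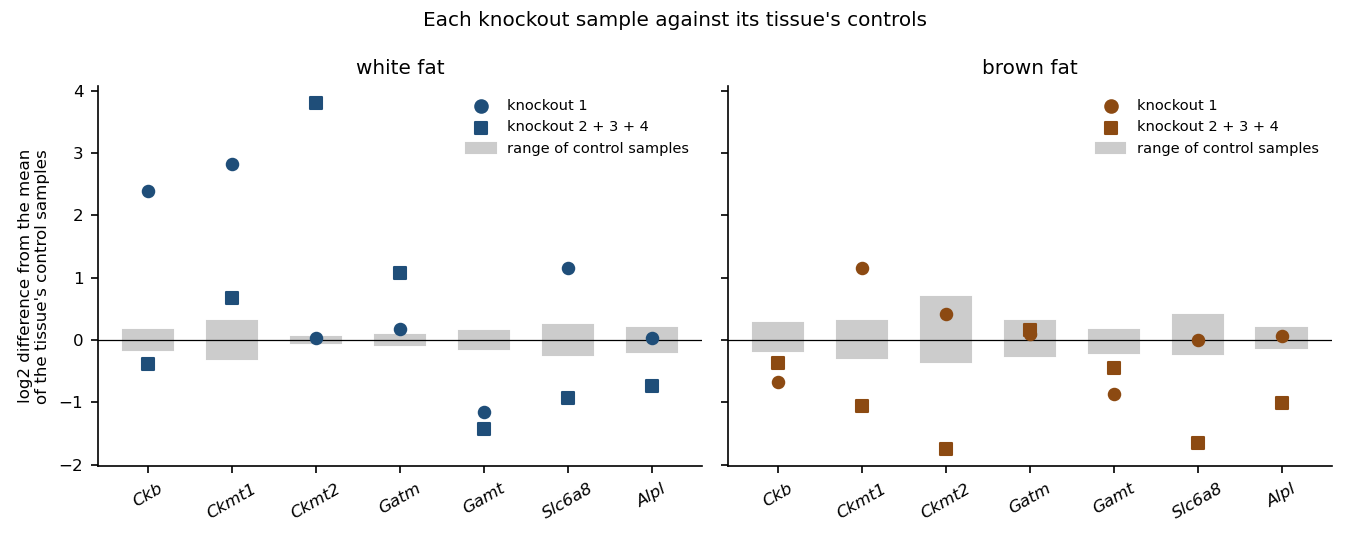
Log2 difference of each distinct knockout sample from the mean of its tissue's control samples, for each creatine cycling gene, with grey boxes for the range of the control samples. Both Gamt points lie below the grey box in each tissue, while the knockout samples lie on opposite sides of zero for Ckb, Slc6a8 and Alpl in white fat and for Ckmt1, Ckmt2 and Alpl in brown fat.

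No slide held both tissues of a genotype, so the tissue differences with the slide as a block rest on links between slides, while each tissue's genotypes could be compared within 1 slide. Within the slide that held both white groups, the differences were 1.09 for Ckb, 1.67 for Ckmt1, 1.80 for Ckmt2, 0.58 for Gatm, 0.10 for Slc6a8 and -0.42 for Alpl. Within the slide that held both brown groups they were -0.36 for Ckb, -0.14 for Ckmt1, -0.87 for Ckmt2, 0.25 for Gatm, -0.96 for Slc6a8 and -0.63 for Alpl. The direction was that of the distinct samples for all 7 members in white fat, and for all but Ckmt1 in brown fat.

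To ask how the tissues differ in these genes, brown fat was compared with white fat in each genotype. In controls 1 of the 7 members, Ckmt2, passed an adjusted p of 0.05 in limma, where 5.09% of all genes passed (788 of 15467). In knockouts again Ckmt2 alone passed, where 1.51% of all genes passed (233). The members' median difference was 0.72 in controls, against -0.09 over all genes, and 0.18 in knockouts, against -0.04. Since Ckmt2 entered the test only through the brown groups, it was bound to differ between tissues, and its count is given as a description. Without brown control 2 + 3, the same member passed in both comparisons.

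The Ckmt2 difference between control tissues was 15.28 ± 1.11 (adjusted p = 0.000584, limma), from a measured mean of -8.11 ± 0.06 (SD, n = 2 samples) in white fat to 7.17 ± 0.59 (SD, n = 3) in brown fat. Since Ckmt2 was not well above background in white controls, this reads as at least 9209-fold higher, counted against the lowest signals well above background on those arrays. In knockouts the difference was 12.70 ± 1.21 (adjusted p = 0.00352), or at least 3058-fold, with 3 of 4 white knockout arrays above background. Without brown control 2 + 3 the control difference was 14.94 (adjusted p = 0.00490, limma), so it was of similar size without the sample with low Ucp1. It was 13.54 with the slide as a block. The p-values of Ckmt2 between tissues are not read as support. The gene was bound to differ, and its white control values were not well above background.

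Skeletal muscle genes moved with Ckmt2: 29 of the 30 listed passed as higher in brown controls and 28 in brown knockouts, with median differences of 10.62 and 8.78. Ckm was higher by 11.81 ± 1.04 in controls (adjusted p = 0.00134, limma) and by 7.64 ± 1.14 in knockouts (adjusted p = 0.0255). Of 21 thermogenic genes 6 passed as higher in brown controls, with a median of 1.73, and 4 in brown knockouts, with a median of 2.06. Among the brown samples, the full order of Ckmt2 was that of neither Ucp1 nor the muscle median. Ckmt2, Ckm and the muscle median were all lowest in brown knockout 2 + 3 + 4, at 5.42, 5.78 and 5.79. Ckmt2 and Ckm were both highest in brown control 2 + 3, each at 7.85. The sample with the lowest Ucp1 level, -0.75, had the highest Ckmt2 level. Brown knockout 1 had Ckmt2 at 7.59 with a muscle median of 6.97. Brown control 1 had Ckmt2 at 6.84 with a muscle median of 7.38. How much of the Ckmt2 signal came from muscle was not tested.

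**Figure D3:**
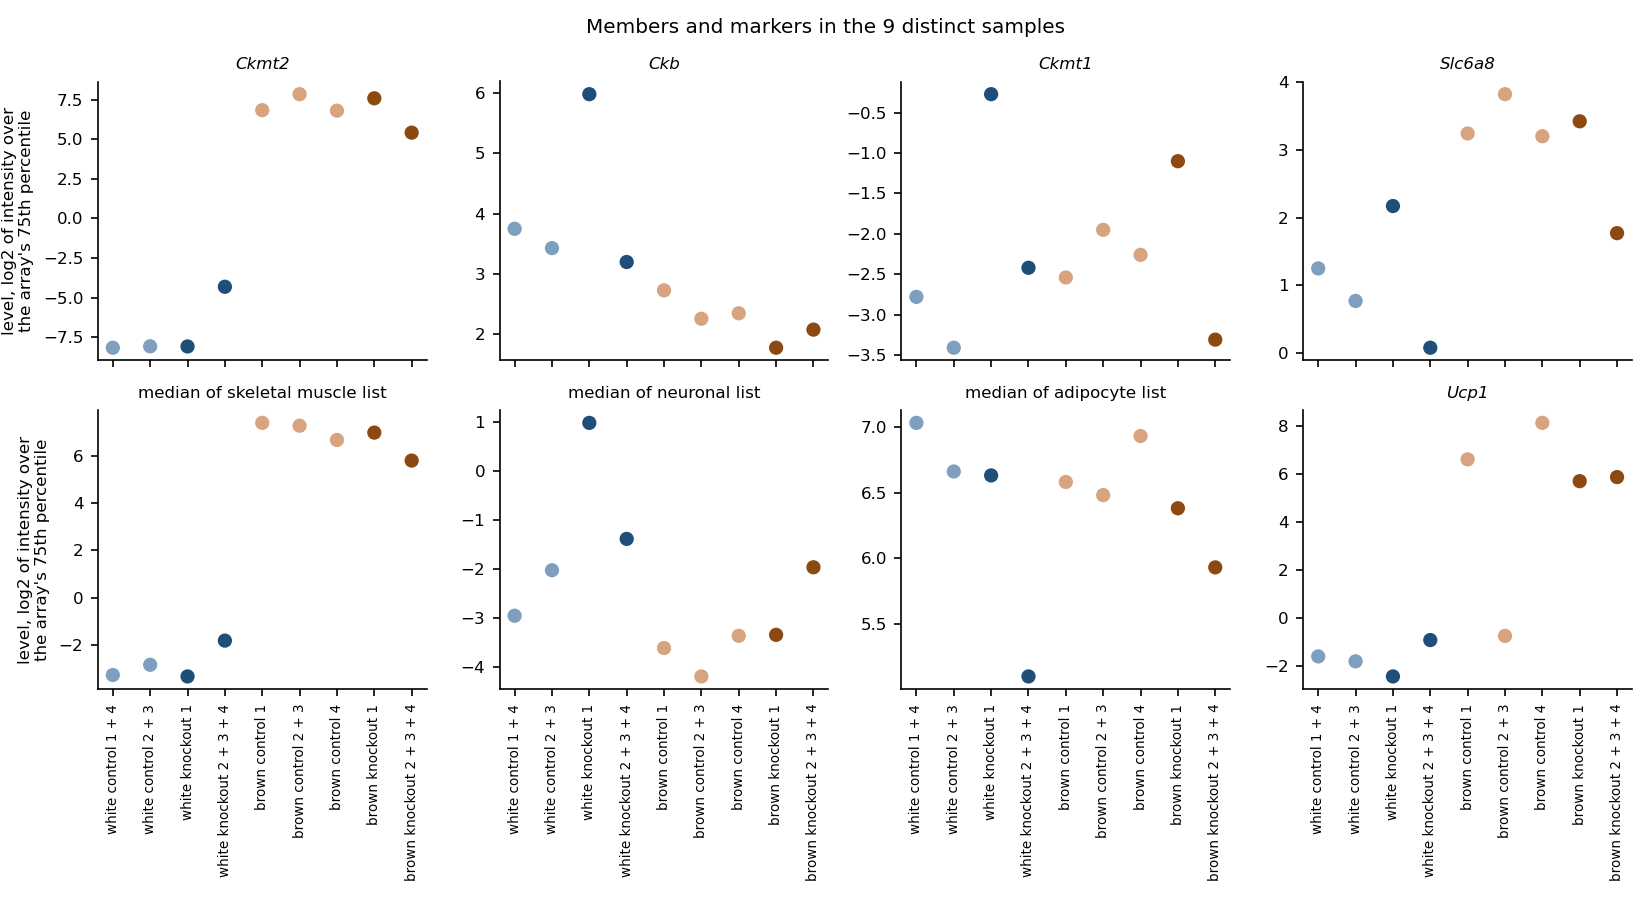
Levels in the 9 distinct samples, as log2 of intensity over the array's 75th percentile, of Ckmt2, Ckb, Ckmt1 and Slc6a8 in the upper row, and of the medians of the skeletal muscle, neuronal and adipocyte lists and Ucp1 in the lower row, colored by group. Brown control 2 + 3 has high Ckmt2 and muscle signal with Ucp1 at -0.75, and white knockout 1 has both the highest Ckb, at 5.98, and the highest neuronal median, at 0.98.

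Slc6a8 was higher in brown than in white controls by 2.41 ± 0.70 (interval 0.77 to 4.05, unadjusted p = 0.0103, adjusted p = 0.103, limma). Its samples did not overlap, which held for every member between control tissues. How often this held over all genes was not computed. In knockouts the difference was 1.47 ± 0.76 (interval -0.33 to 3.27), and the samples overlapped. Its order of group means ran from brown control (3.42) through brown knockout (2.59) and white knockout (1.12) to white control (1.01). Within each tissue the groups did not differ beyond their spread. Among the brown samples, Slc6a8 was highest in brown control 2 + 3 (3.82) and lowest in brown knockout 2 + 3 + 4 (1.77), as Ckmt2 was. The part of muscle RNA in the Slc6a8 level was not tested.

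Gatm ran the other way. It was lower in brown than in white fat, at -1.05 ± 0.31 in controls (interval -1.77 to -0.32, adjusted p = 0.107, limma) and -1.54 ± 0.34 in knockouts (interval -2.33 to -0.74, adjusted p = 0.0913). Its group means ran from -0.45 in white knockout and -1.08 in white control to -1.99 in brown knockout and -2.12 in brown control. Without white knockout 1 the knockout difference was -1.98 (adjusted p = 0.0272). Without either of the white knockout samples, the pooled error was smaller and Ckb, Gatm and Slc6a8 passed between control tissues with their differences unchanged (adjusted p = 0.0300, 0.0321 and 0.0345), among 1769 of all genes in place of 788.

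Ckb was lower in brown fat, with group means of 4.59 in white knockout, 3.59 in white control, 2.45 in brown control and 1.93 in brown knockout. The differences were -1.15 ± 0.71 in controls (adjusted p = 0.380, limma) and -2.66 ± 0.78 in knockouts (interval -4.50 to -0.82, adjusted p = 0.192). The knockout difference was -1.27 without white knockout 1 and -4.05 (adjusted p = 0.00188) without white knockout 2 + 3 + 4. With the slide as a block, the control difference turned to 0.44. The second probe of Ckb gave -0.89 ± 0.75 and -2.17 ± 0.82.

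The other 3 members differed less between tissues. Alpl was at 1.08 ± 0.17 (SD, n = 3) in brown control and 0.36 ± 0.27 (SD, n = 2) in white control, a difference of 0.72 ± 0.38 (interval -0.18 to 1.62), and the difference in knockouts was 0.60 ± 0.42. Gamt was at -0.46 ± 0.23 in controls (adjusted p = 0.295) and 0.18 ± 0.25 in knockouts. Ckmt1 was at 0.84 ± 0.79 in controls and -0.86 ± 0.87 in knockouts, and its direction in knockouts turned to 0.21 without white knockout 1.

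**Figure D4:**
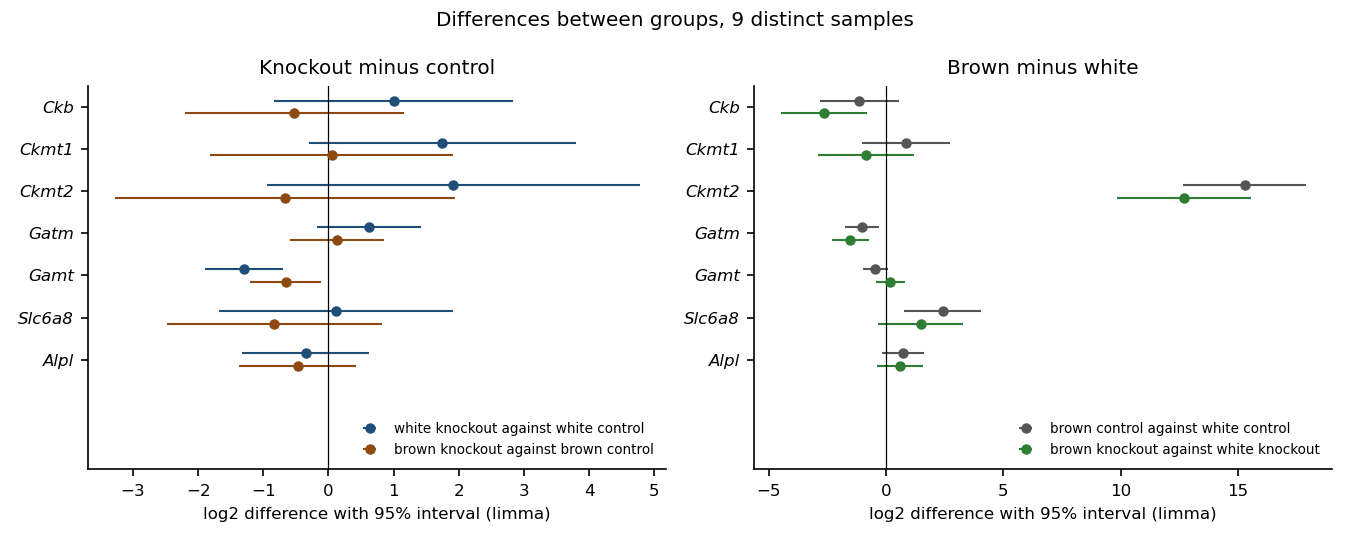
Log2 differences of the 7 members with their 95% intervals from limma over the 9 distinct samples, knockout minus control on the left and brown minus white on the right. In the knockout comparisons only the Gamt intervals exclude zero, and in the tissue comparisons Ckmt2 lies at 15.28 and 12.70 while the other members lie between -2.66 and 2.41.

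The genes around the creatine cycle were read from 7 lists. In the knockout comparisons no gene of any of these lists passed. Among genes that supply substrates, Ass1, which makes the precursor of arginine, was at 2.05 ± 0.49 in white and 1.30 ± 0.44 in brown knockouts, and Psph, the last enzyme of serine synthesis, at -1.27 ± 0.31 and -0.57 ± 0.28. Of the carriers related to Slc6a8, Slc6a13, a GABA and taurine transporter, was at -1.81 ± 0.42 and -1.83 ± 0.38. Slc6a6 went the other way in white knockouts, at 0.76 ± 0.24. Among genes of phosphate handling and mineralisation, Ank, which exports pyrophosphate, was at -1.49 ± 0.29 and Enpp1 at 2.29 ± 0.80 in white knockouts. Phospho1, a phosphocholine phosphatase, was at -0.89 ± 0.37 in brown knockouts. Of the adenylate kinase family, whose members move phosphate between nucleotides, Ak3 was at -1.13 ± 0.34 in white and -0.66 ± 0.31 in brown knockouts. The adjusted p of these values was between 0.290 and 0.619 in limma.

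Between tissues some of these genes passed, all higher in brown fat except Phgdh. Of 8 adenylate kinases 1 passed in each genotype, Ak1, the muscle form (5.17 ± 0.64 in controls and 4.21 ± 0.71 in knockouts). Of 5 genes that exchange ATP across mitochondrial membranes 3 passed in controls and 0 in knockouts: Slc25a4, the adenine nucleotide translocator of muscle and heart (2.55 ± 0.42), and the porins Vdac1 (1.99 ± 0.38) and Vdac3 (1.71 ± 0.33). In knockouts Slc25a4 was at 2.03 ± 0.46 and Vdac1 at 1.79 ± 0.42. Of 6 phosphatase and mineralisation genes 1 passed in controls, Phospho1 (1.72 ± 0.37), and 0 in knockouts. Of 15 substrate genes 1 passed in controls, Phgdh, the entry enzyme of serine synthesis (-1.30 ± 0.24), and 0 in knockouts. None of 7 carriers passed in either genotype, Slc6a13 being at -1.21 ± 0.38 and -1.22 ± 0.42.

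Of 6 calcium cycling genes, which drive another known ATP-spending cycle, 3 passed in each genotype. They were the fast-twitch calcium pump gene Atp2a1 (9.42 ± 0.42 in controls and 8.30 ± 0.46 in knockouts), the calcium release channel gene Ryr1 (8.26 ± 0.81 and 6.36 ± 0.89) and Sln, a regulator of the pump (6.65 ± 1.12 and 8.17 ± 1.23). Atp2a1 and Ryr1 also stand in the skeletal muscle list.

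For each member the 2 other genes with the most similar levels over the 9 distinct samples were found, by Pearson's r among all genes tested. The tissue difference is part of most of these patterns, the samples share scaling and slides, and the values are descriptive. Ckmt2 was nearest to the muscle genes Cox6a2, a subunit of cytochrome oxidase in striated muscle (r = 0.998), and Mylpf, a fast myosin light chain (r = 0.998). Ckb was nearest to Chd5 (r = 0.987) and Ppp1r14a (r = 0.981). Ckmt1 was nearest to Dbndd1 (r = 0.963) and Ercc5 (r = 0.952). Gatm was nearest to Ehmt2 (r = 0.988) and Creld2 (r = 0.984), and Gamt to Ntsr2 (r = 0.978) and Mrtfb (r = 0.967). Slc6a8 was nearest to Hipk3 (r = 0.990) and Podxl2 (r = 0.990), and Alpl to Tmed1 (r = 0.991) and Wfs1 (r = 0.984).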

How the data were processed

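Expression was measured in white and brown fat of male control and knockout mice, 4 arrays a group. Per the file headers, the authors deposited Agilent Feature Extraction 12.0.0.7 files with linear intensity per spot, background-subtracted and unscaled between arrays; the authors' value table equals the mean scanner intensity. Depth is not defined for arrays; their number limits the precision. Between 67.3% and 77.0% of spots were well above background.

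Spots of a probe were averaged and log2 intensity was taken minus the array's 75th percentile. RefSeq accessions named 28223 of 41174 probes through a GRCm38.p6 table. Probes well above background on all arrays of a group were kept, with the brightest per gene. Arrays of a group were joined where the median absolute deviation of difference over stated error was below 1 (0.378 to 0.665 for joined pairs, 1.13 to 4.31 for the others). Where nothing else shows separate animals, p-values measure only the spread between these samples. The comparisons used limma 3.58.1 (R 4.3.3), Benjamini-Hochberg adjusted over 15467 genes, with 5 residual degrees of freedom; the fit was tested on simulated data. Bounds use the lowest signal well above background on each array.

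The members, the gene lists and the joining of arrays were chosen with earlier results of these data known. Pathway genes were named by a rule: up to 4 past the threshold with the smallest p in a comparison between groups, or the 2 with the smallest p where none passed, of which the text gives a part. The planned normexp correction on the mean signal was run on the median signal, the column at hand. Replicate numbers were checked as pairs: same-numbered arrays correlated at 0.29 to 0.57 between the knockout tissues, where arrays 2 to 4 are 1 sample in each. Between knockout and control they correlated at -0.52 to 0.41 in white fat and -0.54 to -0.04 in brown fat. Between control tissues the range was -0.13 to 0.18. Alternatives were all 16 arrays, replicate and slide blocks, quantile and normexp normalisation, the authors' unscaled table, no filter on dim probes, the mean of a gene's probes, and samples left out.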

Additional observations from a re-analysis of the deposited data

How the results depend on the processing

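Alternatives that left out brown control 2 + 3 or a white control sample were chosen after seeing the data. With 16 separate arrays, 3, 3, 2, 5 and 4 members passed, against 0, 0, 0, 1 and 1. The order is white fat, brown fat, their difference, control tissues and knockout tissues. With the replicate block on 16 arrays they were 3, 3, 0 (325 genes), 5 and 4. For that block the gene total is given for the difference alone. Its other counts are therefore not set against a share of all genes here, and they are not read as a result about the members. With the replicate block on distinct samples, which could not be fitted for knockout against control within a tissue, 2 members and 1089 genes passed between control tissues, Slc6a8 at 2.43 (adjusted p = 0.0167), although same-numbered arrays there correlated at only -0.13 to 0.18; that block changed no other member's call. Genes passing rose to 6927, 4736, 640, 6083 and 3987 of 15467 with 16 arrays. With the slide as a block 1 member passed in white fat (194 genes, also within the slide). Between knockout tissues 2 members passed, a count given without its gene total and likewise not read as a result. Under that block Ckb was 0.44 between control tissues and Ckmt1 0.05 between knockout tissues. Without white knockout 2 + 3 + 4, 1 member passed in white fat (123 genes), 4 between control tissues (1769 genes, against 788) and 2 between knockout tissues (1030, against 233). On the unscaled values of the authors, 2 members and 937 genes passed between control tissues; the median over all genes was -0.23 (white fat), 0.31 (brown fat), 0.64 (their difference), -0.43 (control tissues) and 0.25 (knockout tissues).

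Leaving out 1 array gave 0 to 2 members in white fat, 1 to 4 between control tissues and 1 to 2 between knockout tissues, the highest each time without white knockout 1, which also gave 1707, 1769 and 364 genes. Over those settings white fat differences ran from -0.39 to 1.04 for Ckb, -0.93 to 0.14 for Slc6a8 and -0.51 to 1.87 for Ryr2; the brown difference of Ckmt1 from -1.06 to 0.06, its knockout tissue difference from -1.96 to 0.21; and the difference between effects from -1.76 to 0.10 for Slc6a8 and -0.66 to 0.26 for Alpl.

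The cause of the other reversals was not tested. In white fat, Slc6a8 was -0.41 with 16 arrays and with their replicate block, -0.08 on the unscaled values and -0.13 without white control 2 + 3; without white knockout 2 + 3 + 4, Alpl was 0.03 and Ak5 0.06. In brown fat, Ckmt1 was -0.58 with 16 arrays and with the replicate block, -0.14 with the slide block and within the slide, and -0.21 with normexp, where Gatm was -0.13; without brown knockout 2 + 3 + 4, Ckmt2 was 0.42 and Alpl 0.07. For the difference between effects, the unscaled values gave 0.14 for Gatm and 0.51 for Alpl, which was 0.42 without brown knockout 2 + 3 + 4 and 0.07 without white control 2 + 3. Between knockout tissues, without brown knockout 2 + 3 + 4, Ckmt1 was 0.24 and Gamt -0.03. Over the 30 alternatives the Gamt difference stayed within -1.48 to -1.14 (white fat) and -0.86 to -0.21 (brown fat), and Ckmt2 ran from 10.69 to 15.47 between control tissues. Few distinct samples limit every interval.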
